A study of Mus musculus with 4 samples.

Results

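The genes described here are 9 components of the transforming growth factor beta (TGF-beta) pathway: the ligand genes Tgfb1, Tgfb2 and Tgfb3, the latent-ligand presenter gene Nrros, the receptor genes Tgfbr1 and Tgfbr2, the signal transducer genes Smad2 and Smad3, and the inhibitor gene Smad7. They were chosen by gene name, and all 9 had a read count in every library, among 21981 genes in the deposited tables. The study sequenced RNA of microglia from the cerebral cortex of untreated mice at embryonic day 16. The controls (control 1 and control 6, the titles' 1WT and 6WT) were Bach1 fl/fl, with the targeted gene flanked by recombination sites, and the knockouts (cKO 2 and cKO 5, titled 2KO and 5KO) were Bach1 cKO, whose name in the design text adds Cx3. That text speaks of triplicates, and 2 libraries a group are analysed here. The labels do not describe a Cre driver, the cells it acts in, how microglia were isolated, or whether each library came from a separate animal, so p-values measure only the spread between these 4 libraries. Bach1 encodes a heme-binding transcriptional repressor.

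TGF-beta ligands are made with a propeptide that keeps them latent. In microglia the membrane protein NRROS, also called LRRC33, holds latent TGF-beta1 at the cell surface, where integrins of neighbouring cells can release it. The free ligand binds the type II receptor TGFBR2, which recruits and activates the type I receptor TGFBR1, and this kinase phosphorylates SMAD2 and SMAD3. SMAD7 is induced by the signal and blocks the receptor. The pathway is known for keeping microglia in their brain-resident state, with genes such as P2ry12 and Tmem119 depending on it, while vessels and neural cells of the embryonic brain also make TGF-beta ligands.

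Promoter windows from RefSeq (GRCm38.p6, 250 bases before to 50 bases after the annotated start) were searched in 6 members: Tgfb1, Tgfb2, Tgfbr1, Tgfbr2, Smad3 and Nrros. The windows below are those of both receptors, of Nrros, the most abundant member, and of Tgfb2, the ligand that was highest in the library where theirs were lowest. Capitals mark matches on either strand to TGACNNNGC, the core of the antioxidant response element that BACH1 and its competitors bind, and to GAGGAA, a core of the ETS class that includes the macrophage factor PU.1; no match to one overlapped a match to the other.
Tgfbr1 (chr4:47352972-47353271, plus strand): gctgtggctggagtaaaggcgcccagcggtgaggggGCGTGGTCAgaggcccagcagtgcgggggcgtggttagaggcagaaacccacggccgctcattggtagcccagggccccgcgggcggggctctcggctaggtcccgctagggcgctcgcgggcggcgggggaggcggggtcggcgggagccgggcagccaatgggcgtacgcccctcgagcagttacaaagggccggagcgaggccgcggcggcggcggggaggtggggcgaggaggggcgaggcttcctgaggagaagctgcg
Tgfbr2 (chr9:116175314-116175613, minus strand): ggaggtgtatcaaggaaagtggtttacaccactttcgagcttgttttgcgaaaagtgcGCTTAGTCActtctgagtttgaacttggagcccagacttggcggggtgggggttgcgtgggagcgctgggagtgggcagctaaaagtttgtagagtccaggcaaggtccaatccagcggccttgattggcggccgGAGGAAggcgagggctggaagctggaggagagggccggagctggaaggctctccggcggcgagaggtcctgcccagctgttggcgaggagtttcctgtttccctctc
Nrros (chr16:32165545-32165844, minus strand): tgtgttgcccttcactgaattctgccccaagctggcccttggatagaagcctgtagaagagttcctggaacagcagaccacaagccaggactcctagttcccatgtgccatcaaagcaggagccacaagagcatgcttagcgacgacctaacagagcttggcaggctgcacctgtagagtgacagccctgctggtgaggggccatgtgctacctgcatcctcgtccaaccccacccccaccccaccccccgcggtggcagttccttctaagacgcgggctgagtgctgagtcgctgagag
Tgfb2 (chr1:186705940-186706239, minus strand): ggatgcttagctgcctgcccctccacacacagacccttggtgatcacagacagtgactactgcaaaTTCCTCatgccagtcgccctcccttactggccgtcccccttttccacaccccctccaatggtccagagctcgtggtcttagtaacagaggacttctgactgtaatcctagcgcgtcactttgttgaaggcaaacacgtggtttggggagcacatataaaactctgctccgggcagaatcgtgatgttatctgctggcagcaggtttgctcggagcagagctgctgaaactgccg
TGACNNNGC was found in the windows of Tgfbr1, at base -214 from the start, and Tgfbr2, at base -192, against 12.4% of 32851 promoter windows. GAGGAA was found in Tgfb2 (base -184) and Tgfbr2 (base -57), and in the window of a second Tgfbr1 start (base -95), against 28.3% of all windows. The AP-1 core TGANTCA (7.81% of all windows) and the SMAD palindrome GTCTAGAC (0.213%) were not found in any of the 6 members' windows. The GC box CCGCCC (35.7% of all windows) had 6 matches in the Tgfb1 window and 2 each in those of Smad3 and of the printed Tgfbr1 start. A match is a run of letters, and none was tested for binding.

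Libraries held 17233115 to 19305078 reads, at which 3 reads equal 0.155 to 0.174 CPM (counts scaled by the library total, as deposited). Bach1 measured 45.8 and 21.6 CPM in controls 1 and 6, with 30.0 and 35.4 CPM in the knockouts 2 and 5. Both cKO values lay between the controls. The Bach1 log2 fold change was -0.07 ± 0.47 (SE), so a lower count in cKO was not shown. Only whole-gene counts are given, the labels do not say which exons were flanked, and whether this count can check the labels was not tested. The 12 microglia markers were all detected in every library, with summed levels of 17319, 28107, 6409.7 and 24614 CPM. This and every later series of 4 values follows the order control 1, control 6, cKO 2, cKO 5. Of the other cell types, the 8 cortical neuron markers summed to 1064, 317, 3576 and 287 CPM. The 8 radial glia and astrocyte markers summed to 456, 155, 1067 and 121 CPM, the 8 endothelial markers to 3125, 584, 2421 and 325 CPM, and the 8 measured pericyte and fibroblast markers to 3928, 758, 3532 and 284 CPM. The 8 border-associated macrophage markers summed to 249, 291, 132 and 550.4 CPM, with their member Cd163 at 0 reads in control 6, and the 4 erythroid markers to 244, 93.9, 180.3 and 90.0 CPM. The library cKO 2 thus stood apart, lowest in microglia markers and highest in neural ones, and the vascular marker sums were higher in control 1 and cKO 2 than in the other libraries. In such bulk libraries, fewer cells of a type and less RNA per cell cannot be told apart.

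Comparing cKO with control asks which components of the pathway differ between the labelled genotypes. Since a lower Bach1 count in cKO was not shown, loss of Bach1 in these cells was not shown either. No member passed the threshold in edgeR's quasi-likelihood test, where 0 of 9 members and 0 of 15951 genes had an adjusted p under 0.05 (percent called: 0), and each member had an adjusted p of 0.9997. At an unadjusted p under 0.05 there were 0 members, against 49 genes in all (0.307%), and DESeq2 gave 0 members adjusted and 0 unadjusted. Over all genes tested, 8425 fitted values were positive and 7526 negative. The fitted value was positive for Tgfb2 and Tgfb3 and negative for the other 7, with a median log2 fold change of -0.46 over the members and 0.03 over all genes tested. Without cKO 2 these medians were -0.10 and -0.03, and with scaling on microglia marker reads 0.52 and 1.24. An exact permutation of 2 against 2 libraries has only 3 distinct splits and cannot go below p = 0.333, so no such test was used.

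Among the ligands, Tgfb1 and Tgfb3 had lower means over the 4 libraries (5.67 and 4.67 CPM) than Tgfb2 (20.8 CPM). Tgfb2 and Tgfb3 varied most between libraries. Tgfb1 (ENSMUSG00000002603, chromosome 7, 25687002 to 25705077, plus strand, GRCm38), the ligand that NRROS presents, measured 4.01, 10.9, 2.14 and 5.65 CPM across the libraries, from 70, 188, 37 and 109 reads. Each cKO library lay below control 6, and cKO 5 lay above control 1, so the groups overlapped. Control libraries averaged 7.46 ± 4.88 CPM and knockouts 3.89 ± 2.48 (SD, n = 2 each), and the fitted log2 ratio was -0.98 ± 0.96 (SE). It was -0.33 without cKO 2 and 0.04 without control 6. With so few reads, the 95% exact Poisson interval was 3.12 to 5.06 CPM in control 1 and 1.50 to 2.95 CPM in cKO 2; such intervals cover counting error only.

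Tgfb2 (ENSMUSG00000039239, chromosome 1, 186622792 to 186705989, minus strand), a ligand of developing neural and vascular tissue, measured 23.9, 5.28, 49.2 and 5.02 CPM. The highest and the lowest values were both in cKO libraries, 9.78-fold apart, and control 1 exceeded control 6 by 4.52-fold. Control libraries averaged 14.6 ± 13.1 CPM and knockouts 27.1 ± 31.2 (SD, n = 2 each), with a fitted log2 ratio of 0.74 ± 1.20 (SE). Without cKO 2 the log2 fold change was -1.37 in edgeR, the opposite direction. Tgfb3 (ENSMUSG00000021253, chromosome 12, 86056745 to 86079041, minus strand), the remaining ligand gene, measured 4.12, 2.21, 11.7 and 0.673 CPM. Its cKO libraries enclosed both controls, with cKO 2 17.3-fold above cKO 5, where 13 reads gave a 95% exact Poisson interval of 0.359 to 1.15 CPM. The log2 fold change of Tgfb3 was 0.77 ± 1.32 (SE) and became -2.09 without cKO 2. Tgfb2 and Tgfb3 were high in the 2 libraries with more neural and vascular marker RNA, and the part of that RNA in their levels was not tested. Annotated genes on the opposite strand overlap 12.4% of the Tgfb3 exon length (Gm37804 and Gm48008) and 2.14% of that of Tgfb2 (Gm29491), and since the sources used here do not give the strand setting of the counting, their reads cannot be told apart.

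**Figure D1:**
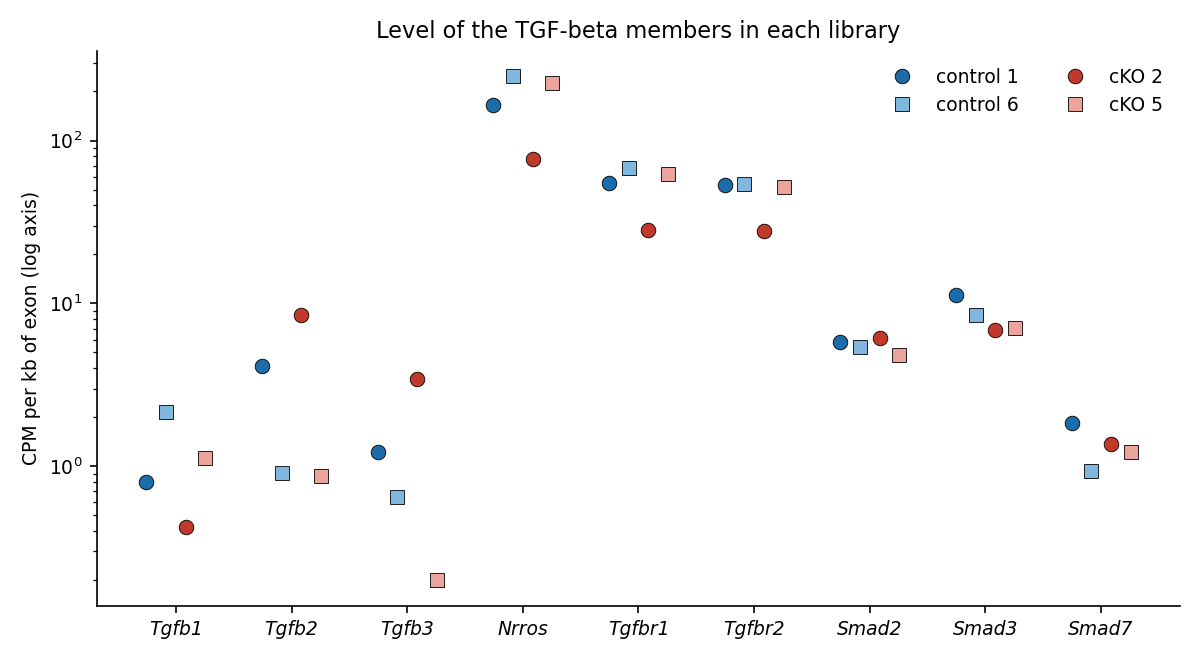
Level of each member in each library, as CPM per kb of annotated exon on a log axis; circles and squares are single libraries, blue for control and red for cKO. Nrros lies highest at 76.8 to 249, and the point for cKO 2 is the lowest of 4 for Nrros, Tgfbr1, Tgfbr2 and Tgfb1 and the highest for Tgfb2 and Tgfb3.

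Levels of different genes were compared per kilobase of exon. Nrros had the highest mean, 179 ± 77.2 CPM per kb (SD over 4 libraries), followed by Tgfbr1 at 53.1 ± 17.4 and Tgfbr2 at 46.7 ± 12.5 CPM per kb. Smad3 had 8.43 ± 2.01 and Smad2 5.53 ± 0.578 CPM per kb. Below these came Tgfb2 (3.60 ± 3.60 CPM per kb), Tgfb3 (1.38 ± 1.44), Smad7 (1.34 ± 0.375) and Tgfb1 (1.13 ± 0.748). The ranges of Nrros and Tgfbr1, of Tgfbr2 and Smad3, and of Smad3 and Smad2 did not overlap, while Tgfbr1 overlapped with Tgfbr2, Smad2 with Tgfb2, and the lowest 4 genes with each other. Per kilobase of the longest transcript in place of all exons, Tgfb1 moved from place 9 to place 7 and Tgfb3 from 7 to 9. The receptor and presenter genes were thus present at levels well above those of the ligand genes in every library. Nrros had 115 to 207 times the Tgfb1 level per kb of all exons and 68.5 to 124 times per kb of the longest transcript, so the multiple depends on the length used. Tgfb1 is known to be made by microglia, and the reason for its 37 to 188 reads here was not tested.

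The ligand makeup of a library does not depend on how libraries are scaled, but it does depend on the gene lengths used. Per kb of exon, Tgfb2 made up 67.2%, 24.5%, 68.7% and 39.7% of the 3 ligands, and Tgfb3 19.9%, 17.5%, 27.9% and 9.10%. Tgfb1 made up the rest, which was 58.0% in control 6 and 51.2% in cKO 5, but 3.43% in cKO 2. Tgfb1 was the leading ligand in the microglia-rich libraries control 6 and cKO 5, and Tgfb2 in control 1 and cKO 2, which is a division within each genotype and not between them. Per kb of the longest transcript, the Tgfb1 share was 20.9%, 71.6%, 5.98% and 65.0%, with the same leading ligand in each library. The summed ligand level was 6.13, 3.73, 12.4 and 2.19 CPM per kb.

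**Figure D2:**
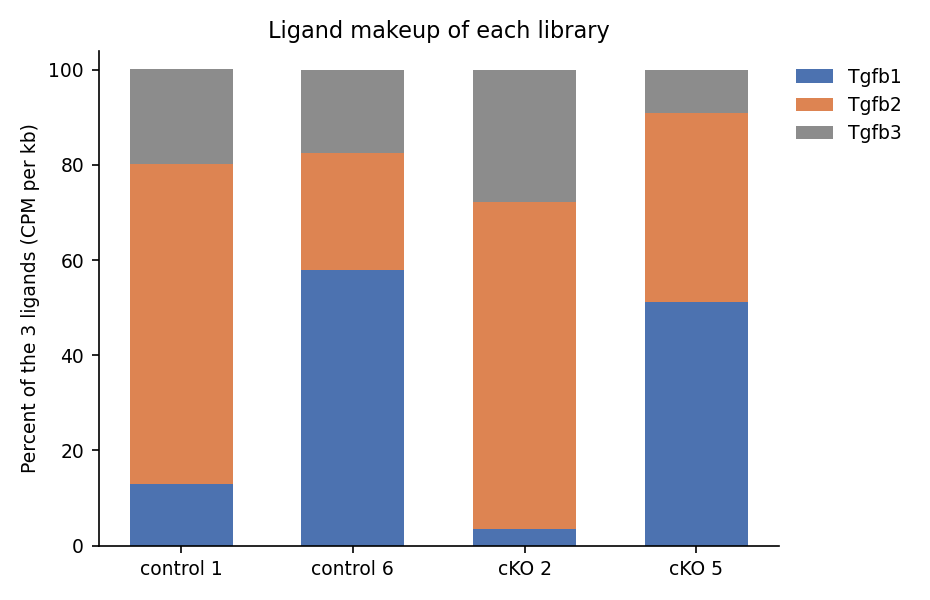
Share of the 3 ligand genes in each library, in percent of their summed CPM per kb; each bar is a library. Tgfb1 takes 58.0% and 51.2% in control 6 and cKO 5 but 3.43% in cKO 2, and Tgfb2 takes 67.2% and 68.7% in control 1 and cKO 2.

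Nrros and both receptor genes had their lowest values in cKO 2. Nrros (ENSMUSG00000052384, chromosome 16, 32142785 to 32165594, minus strand) measured 688, 1039, 321 and 949.7 CPM. The cKO 5 value lay between the controls, so the groups overlapped. Control libraries averaged 864 ± 248 CPM and knockouts 635 ± 445 (SD, n = 2 each), for a fitted log2 ratio of -0.46 ± 0.78 (SE), and 0.23 without cKO 2. The microglia marker sum was also lowest in cKO 2, and its part in the Nrros and receptor values was not tested.

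Tgfbr1 (ENSMUSG00000007613, chromosome 4, 47353222 to 47414931, plus strand), the kinase receptor gene, measured 359, 440.5, 185 and 404 CPM, averaging 399.8 ± 57.5 in control and 294 ± 155 in knockout libraries (SD, n = 2 each). Here too the cKO 5 value was between the controls. The log2 fold change of Tgfbr1 was -0.46 ± 0.61 (SE) and 0.11 without cKO 2. Tgfbr2 (ENSMUSG00000032440, chromosome 9, 116084293 to 116175360, minus strand), the ligand-binding receptor gene, measured 437, 441, 229 and 422 CPM, averaging 439 ± 2.94 in control and 326 ± 137 in knockout libraries (SD, n = 2 each). Both cKO values were below both controls in CPM, but after TMM scaling (trimmed mean of M-values) cKO 5 at 459 lay between control 1 at 423 and control 6 at 481. The log2 fold change of Tgfbr2 was -0.46 ± 0.53 (SE) and 0.05 without cKO 2. The receptors had similar levels in all libraries, with Tgfbr1 over Tgfbr2 at 1.03, 1.25, 1.01 and 1.20 per kb of all exons and 1.16, 1.40, 1.13 and 1.34 per kb of the longest transcript.

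Smad2 and Smad3 encode the transducers that the receptor activates. Smad2 (ENSMUSG00000024563, chromosome 18, 76241580 to 76305731, plus strand) measured 50.9, 47.2, 54.0 and 42.2 CPM, with a log2 fold change of -0.11 ± 0.29 (SE). The cKO libraries enclosed the controls in CPM, whereas after TMM scaling they had 47.1 and 45.9 against 49.2 and 51.4 in control 1 and control 6, a difference smaller than its SE. Smad3 (ENSMUSG00000032402, chromosome 9, 63646767 to 63757994, minus strand) measured 62.2, 47.4, 38.3 and 39.0 CPM. Both cKO values lay below both controls, with and without TMM scaling. Control libraries averaged 54.8 ± 10.5 CPM and knockouts 38.6 ± 0.462 (SD, n = 2 each). The log2 fold change of Smad3 was -0.56 ± 0.32 (SE), with an unadjusted p of 0.149 and an adjusted p of 0.9997 in edgeR. It was -0.37 without cKO 2 and -0.76 without cKO 5, and 0.52 where libraries were scaled on microglia marker reads, a scaling that also moved the median of all genes from 0.03 to 1.24.

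Smad7 (ENSMUSG00000025880, chromosome 18, 75367529 to 75395935, plus strand), the feedback inhibitor gene, measured 8.30, 4.24, 6.18 and 5.54 CPM. Both cKO values lay between the controls, and the fitted log2 ratio was -0.15 ± 0.60 (SE). It was 0.30 without control 1 and -0.50 without control 6. Smad2 over Smad3 per kb was 0.516 and 0.629 in the controls and 0.890 and 0.684 in cKO 2 and cKO 5, so the cKO ratios were both above the control ratios, and this pattern was picked out after the values were seen. On TMM-scaled CPM, 2 of the 9 members (Smad2 and Smad3) had both cKO libraries below both controls, and 0 had them above. Over all genes tested, 7.64% lay below in this way and 8.33% above.

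**Figure D3:**
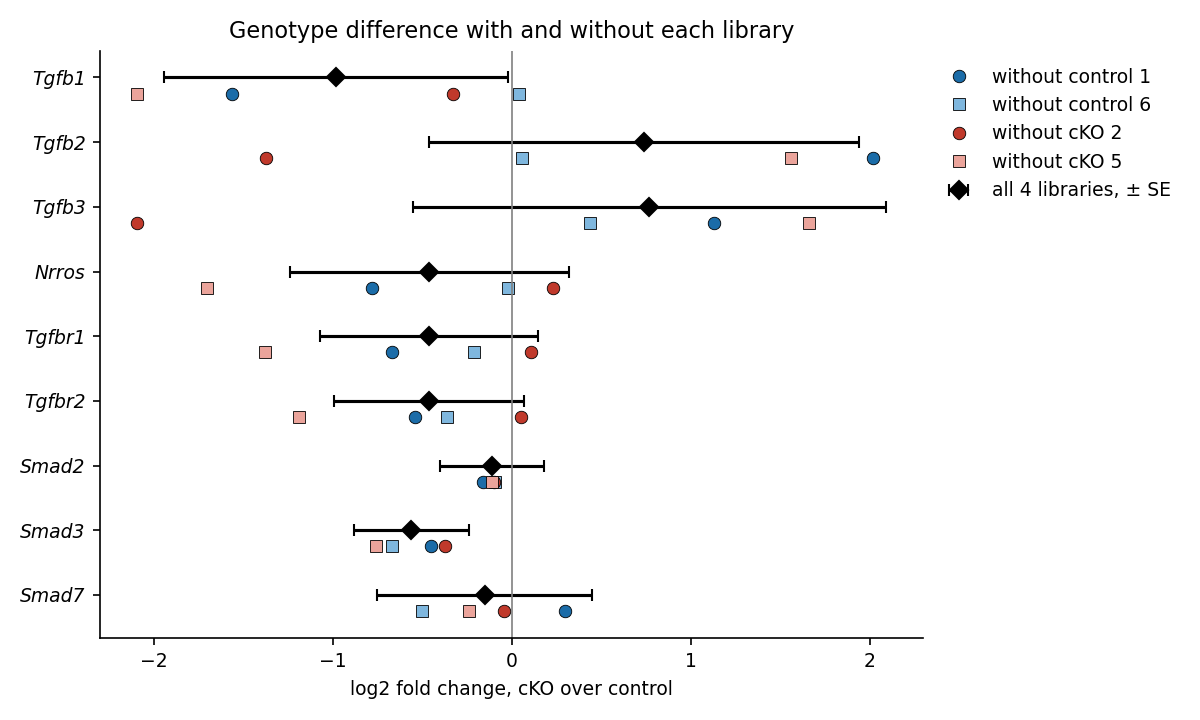
Log2 fold change of cKO over control for each member from edgeR; black diamonds with SE bars use all 4 libraries, and coloured points leave out the named library. Smad2 and Smad3 stay below 0 in all 5 fits, while Tgfb2 and Tgfb3 go from 0.74 and 0.77 to -1.37 and -2.09 without cKO 2.

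The reads of each member were also set against the summed reads of the 12 microglia markers, the sum that also scaled the marker-based fits. Cx3cr1, part of that sum, had 250.2, 184, 117 and 112 reads per 1000 marker reads. It was the 1 marker of the 12 with both cKO libraries below both controls on TMM-scaled CPM, and 0 lay above. The shares over all genes tested were 7.64% below and 8.33% above. In plain CPM, Itgam as well as Cx3cr1 had both cKO libraries below both controls. The part of Cx3cr1 in values per marker read was not tested. Nrros had 39.8, 37.0, 50.1 and 38.6 reads per 1000 marker reads. Its highest value was thus 1.35 times its lowest, compared with 3.24 times in CPM. Tgfb1 had 0.231, 0.388, 0.333 and 0.229 reads per 1000 marker reads, a spread of 1.69 times against 5.10 times in CPM. Tgfbr1 spread 1.84 times (2.39 in CPM) and Tgfbr2 2.28 times (1.93 in CPM). For the other members the spread grew on this scale, to 5.02 times for Smad2, 3.78 for Smad3, 6.40 for Smad7, 40.8 for Tgfb2 and 66.5 for Tgfb3, with cKO 2 highest for each. Nrros, Tgfb1 and Tgfbr1 thus varied less between libraries per marker read than in CPM.

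**Figure D4:**
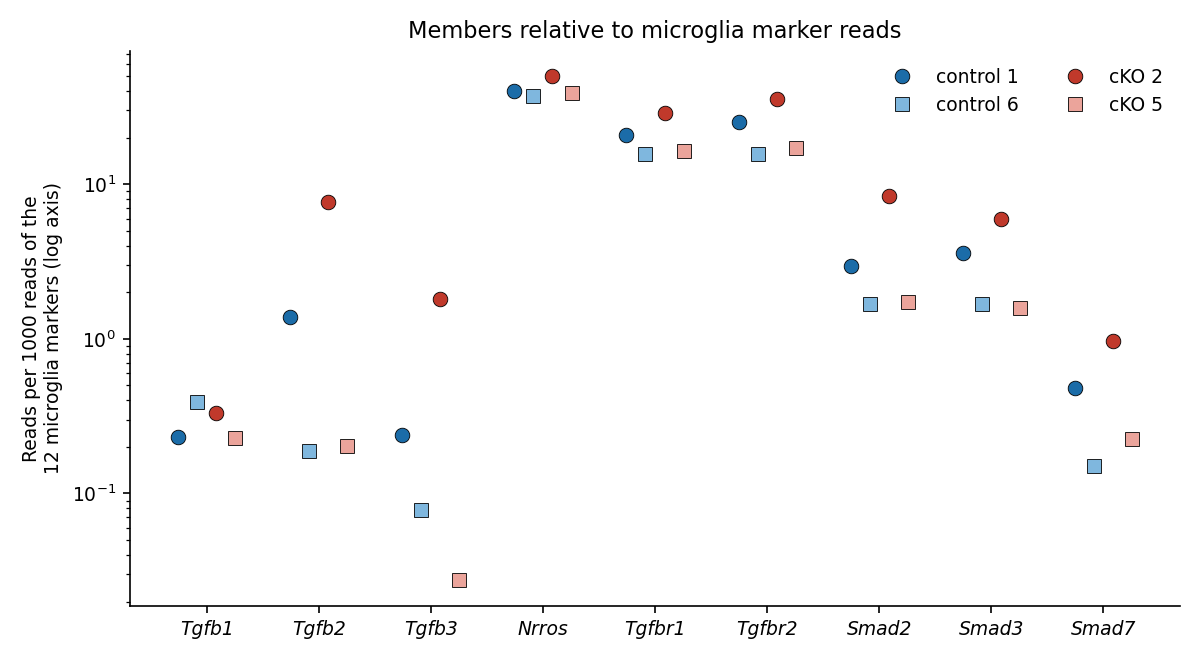
Reads of each member per 1000 reads of the 12 microglia markers in each library, on a log axis; circles and squares are single libraries, blue for control and red for cKO. Nrros spans 37.0 to 50.1, whereas Tgfb2 and Tgfb3 in cKO 2 lie far above the other libraries.

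Across the 4 libraries the members fell into a few profiles. On log2 TMM-scaled CPM centred on each gene's mean, Nrros deviated by -0.04, 0.73, -1.29 and 0.60, beside median deviations of -0.11, 0.82, -1.45 and 0.72 for the microglia markers. Tgfb2 deviated by 0.80, -1.21, 1.69 and -1.28, beside 0.35, -1.12, 1.94 and -1.05 for the cortical neuron markers and 1.47, -0.79, 0.96 and -1.59 for the endothelial markers. Smad2 stayed within -0.08 and 0.09.

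**Figure D5:**
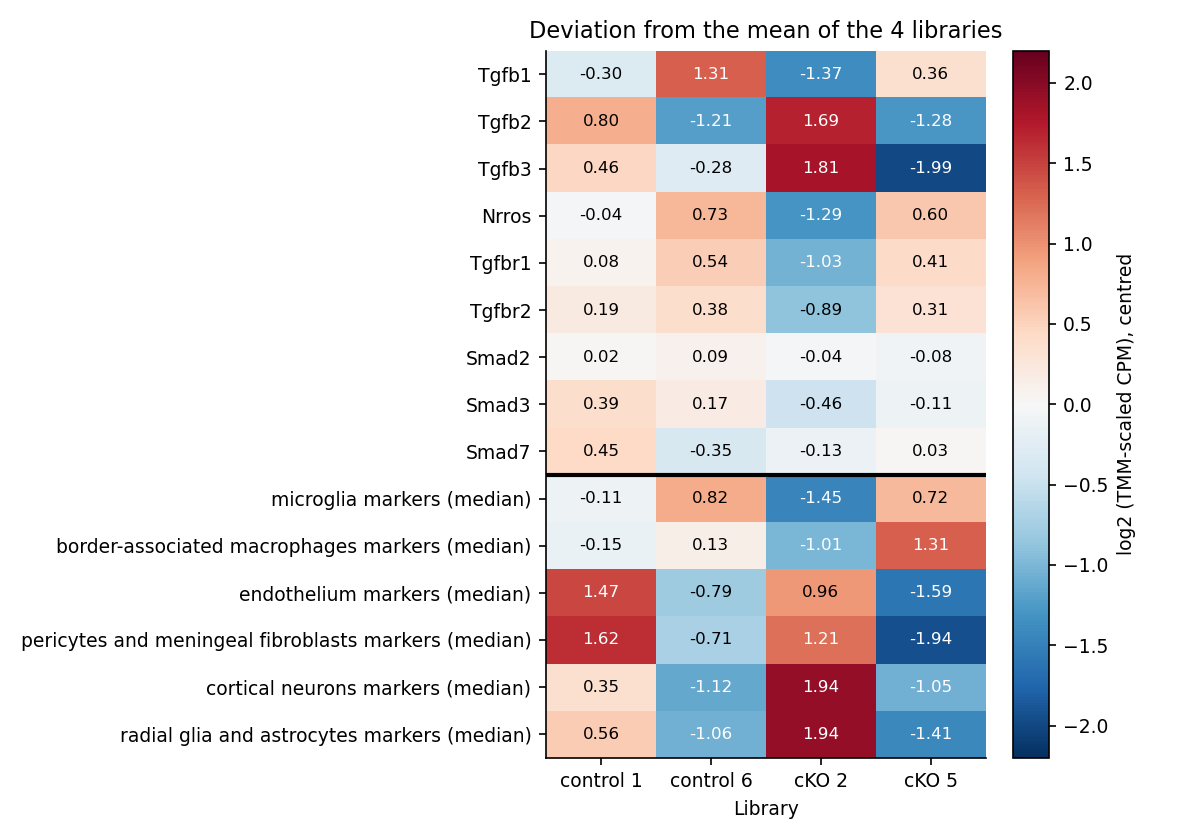
Deviation of each member (top) and of the median of 6 marker lists (bottom) from the mean of the 4 libraries, in log2 of TMM-scaled CPM (with 0.5 added for the lists); red is above and blue below the mean. Tgfb1, Nrros and both receptors share the signs of the microglia and border-associated macrophage marker lists alike in control 6, cKO 2 and cKO 5. Tgfb2 and Tgfb3 share those of the neuron, radial glia, endothelial and pericyte marker lists alike in all 4 libraries.

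Likeness to a member was sought among 9278 genes tested with a mean of at least 10 CPM. Symbols starting with Gm and a digit or ending in Rik were left out. Genes most like a member were ranked by the root mean square difference between centred log2(CPM + 0.5) profiles over the 4 libraries. For Nrros these were Myd88, an adaptor of Toll-like receptors (0.022), Renbp (0.029) and the tetraspanin gene Cd9 (0.029). Tgfbr1 was closest to the calcium channel gene Orai3 (0.016), Gmpr (0.022) and Galnt10 (0.024). The nearest profiles to Tgfb1 were Tlcd2 (0.078), Zfp385a (0.101) and Gmfg (0.101). Tgfb2 was matched by the morphogen gene Wnt5a (0.032), Cdo1 (0.044) and the neuronal kinase gene Pak7 (0.044), and Tgfb3 by Soga3 (0.069), the microtubule-binding protein gene Mapre3 (0.085) and Mtss1l (0.086). Between members, Tgfbr1 differed from Tgfbr2 by 0.13 and from Nrros by 0.19, whereas Tgfb1 and Tgfb2 differed by 2.07. Only 4 libraries underlie these values, which share the marker differences given above.

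The authors' deposited tables compare 1 cKO library with 1 control each, and these comparisons share libraries. A gene counted as called there when its deposited p was under 0.05 and its log2 change was 1 or more in size. In the authors' deposited table of cKO 2 against control 6, 5 of 9 members were called (2 up, 3 down), where 47.1% of genes were called. For cKO 2 against control 1 the authors' deposited table called 3 members (31.6% of genes), for cKO 5 against control 1 2 members (34.8%), and for cKO 5 against control 6 1 member (20.6%). Tgfb2 had log2 changes of 1.04 and 3.22 in the authors' deposited tables of cKO 2 against control 1 and control 6, and -2.25 and -0.07 in those of cKO 5. Tgfb3 was called in all 4 of the authors' deposited tables, up at 1.50 and 2.40 with cKO 2 and down at -2.61 and -1.71 with cKO 5. Nrros was called down in both authors' deposited tables of cKO 2 (-1.10 and -1.70) and in neither of cKO 5 (0.46 and -0.13). Smad3 was negative in every one of the authors' deposited tables, between -0.70 and -0.28, and was never called.

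The rest of the pathway was described through 59 genes in 5 lists, of which 57 had a count in every library and were tested; Itgb6 and Ltbp2 were not tested. None of the 57 passed the threshold in edgeR, with 0 at an unadjusted p under 0.05. Their values were positive for 12 and negative for 45, against 8425 and 7526 over all genes tested. The median log2 fold change over the 57 genes was -0.33, against 0.03 for all genes tested, and it was 0.84 against 1.24 with scaling on microglia marker reads. Without cKO 2 the pathway median was -0.09, against -0.03 for all genes. Both cKO libraries lay below both controls for 4 of 57 genes, a share near the 7.64% of all genes. They lay above for 2 of 57, a smaller share than the 8.33% of all genes, and that difference was not tested.

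Latent complex and release genes had 5 positive and 9 negative values among 14 tested, with a median log2 fold change of -0.09. Itgb1, an integrin subunit that pairs with the alpha-v chain among others, had 503, 559.6, 380.5 and 695 CPM (log2 fold change -0.01 ± 0.55, SE). Itgb5, another partner of alpha-v, had 87.7, 175, 37.8 and 201 CPM (-0.14 ± 1.00). Furin, the protease that cuts the ligand from its propeptide, measured 42.4, 46.7, 18.7 and 30.0 CPM, for a fitted log2 ratio of -0.91 ± 0.47, which was -0.47 without cKO 2 and -1.51 without cKO 5. Furin was picked out after its values were seen, as were Junb and Cdkn1a below, for groups that did not overlap with or without TMM scaling. Groups of Smad4 (-0.23 ± 0.33), Smurf1 (-0.44 ± 0.39) and Ppm1a (0.11 ± 0.30) did not overlap on TMM-scaled CPM only. Those of Skil and Pmepa1 did not overlap in plain CPM only.

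Co-receptors and extracellular modulators had 1 positive and 5 negative values (median log2 fold change -0.47). Eng, the endothelial co-receptor endoglin, measured 524, 117, 399 and 69.9 CPM (-0.58 ± 1.02), and Acvrl1, its type I receptor partner, had 82.4, 33.0, 56.5 and 31.7 CPM (-0.47 ± 0.51). Both were high in control 1 and cKO 2, the libraries with the higher endothelial marker sums. SMAD partners and feedback genes had 2 positive and 11 negative values (median -0.28). Skil, the corepressor SnoN, measured 234, 249.9, 201 and 211 CPM (-0.30 ± 0.34), and its relative Ski had 164, 198, 94.2 and 199 CPM (-0.33 ± 0.57).

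General TGF-beta target genes had 4 positive and 8 negative values (median log2 fold change -0.38). Tsc22d1, a leucine zipper gene induced by TGF-beta, had 943, 230.0, 1458 and 149 CPM (0.30 ± 1.18), and the fibronectin gene Fn1 had 212, 38.4, 136 and 35.1 CPM (-0.65 ± 0.97). Junb, an immediate early factor gene, measured 139, 116, 62.6 and 75.6 CPM (-0.93 ± 0.35). Cdkn1a, the cell cycle inhibitor p21, measured 43.0, 34.9, 52.7 and 69.8 CPM (0.61 ± 0.38), with a value of 0.19 without cKO 5.

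Microglial genes known to depend on TGF-beta had 12 of 12 negative values (median log2 fold change -0.46), with 0 groups separated. The 12 microglia markers likewise had 12 of 12 negative values (median -0.41). The endothelial list and the pericyte and fibroblast list each had 8 of 8 negative. Lists for cortical neurons, radial glia and astrocytes, and border-associated macrophages each had 8 of 8 positive. P2ry12, a purinergic receptor gene, had 3346, 5871, 1071 and 4184 CPM (-0.81 ± 1.01). Its value was -0.05 without cKO 2, -0.24 without control 6 and -2.38 without cKO 5. The complement gene C1qa had 4213, 5877, 1591 and 6924 CPM (-0.23 ± 1.03). The value of C1qa ranged from -1.93 to 0.55 with a library left out, and was 0.23 with scaling on microglia marker reads. The median deviation of the TGF-beta-dependent list was 0.06, 0.76, -1.46 and 0.65 in that order. This was close to the -0.11, 0.82, -1.45 and 0.72 of the 12 microglia markers, which hold none of its genes. General targets deviated by 0.75, -0.75, 0.67 and -0.68, with the higher values in control 1 and cKO 2. Those libraries also had the higher neural, vascular and erythroid marker sums, which cannot be told apart here. The median of the SMAD partner list was within -0.15 and 0.09, while single genes of the list ranged more widely, such as Bambi, a decoy receptor gene (105, 23.7, 98.9 and 13.1 CPM), named after its values were seen.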

How the data were processed

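Processed tables of 4 RNA sequencing libraries were used. The authors deposited 4 tables, each pairing 1 cKO with 1 control library, with raw read counts per Ensembl gene and CPM (counts divided by the library total, where a count of 0 was given 0.5 reads), per the file headers and values. The authors' fold change divides the cKO by the control CPM and is also given as log2. Which test produced the deposited p-value columns is not stated. The deposited adjusted p was below the deposited p for 66.6% (cKO 5 against control 6) to 80% (cKO 2 against control 6) of genes. The reason was not tested, and the calls described here use the unadjusted column. Bowtie2 2.2.3, TopHat2 2.0.12 and HTSeq 0.6.0 are named with build mm9 per the submitters' processing notes, without their roles. Gene positions in the tables matched GENCODE M21 on GRCm38 instead (90.3% identical of 21932 genes), so GRCm38 is used. Smad2 and Smad7 promoters were not searched, and Tgfb3 had no RefSeq window.

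Counts were joined on gene ID, leaving 18723 genes with a count in every library. Library totals came from the ratio of count to CPM. Control and cKO counts entered quasi-likelihood fits in edgeR 4.0.16 under R 4.3.3, with TMM factors of 1.03, 0.917, 1.15 and 0.919 in control 1, control 6, cKO 2 and cKO 5, filterByExpr at a minimum count of 10, 2 residual degrees of freedom, and Benjamini-Hochberg adjustment over 15951 genes at 0.05. Tests were two-sided, and each SE is the log2 fold change over the square root of F. The common dispersion was 0.425. The procedure was tested on simulated data, where recovery of changed genes was required only at a dispersion far below this one. That check therefore does not show what size of change these fits could detect. Exon lengths came from GENCODE M21. The rule for named genes took the 9 members, the 2 most abundant genes of each pathway list plus up to 3 with the smallest unadjusted p under 0.05 or any past the threshold, and the 3 genes most like each of Tgfb1, Tgfb2, Tgfb3, Tgfbr1 and Nrros. Members, lists and rule were chosen with earlier results of these data known. Alternatives were RLE factors, library totals, scaling on microglia markers, no count filter, DESeq2 1.42.0, leaving out each library, and the longest transcript for levels. Ratios and shares per kb of the longest transcript were added after seeing the data.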

Additional observations from a re-analysis of the deposited data

How the results depend on the processing

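No paired analysis was possible because the replicate numbers 1 and 6 of the controls are not shared with 2 and 5 of the cKO libraries. No member or pathway gene passed the threshold in edgeR or DESeq2 under any of the 9 alternatives run on the genotype comparison, and the smallest adjusted p over the named genes was 0.4681, without cKO 5. Without cKO 5 the median log2 fold change was -0.76 over the members, -0.24 over the 57 pathway genes and 0.03 over all genes tested. Without cKO 2 these medians were -0.10, -0.09 and -0.03. Each of these fits leaves 1 cKO library, so effect sizes only are given. With all libraries, DESeq2 gave 74 of 15951 genes at an unadjusted p under 0.05. In edgeR without the count filter 149 of 18723 genes reached it. Members and pathway genes among them were 0 in both fits. RLE factors, no filter and DESeq2 kept the direction of all 22 named fold changes, and library totals alone reversed Itgb1 (0.02). Scaling on microglia marker reads reversed Nrros (0.21), Tgfbr1 (0.31), Tgfbr2 (0.37), Smad2 (1.13), Smad3 (0.52), Smad7 (0.91), Itgb1 (0.84), Itgb5 (0.31), Eng (0.92), Acvrl1 (0.77), Ski (0.46), Skil (0.84), Fn1 (0.74), C1qa (0.23), Furin (0.01) and Junb (0.08); all of these lay below the median of all genes in that fit, 1.24. The placement of 7 of 9 members in the order of levels was kept per kb of the longest transcript.

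Leaving out each library in turn gave log2 fold changes from -2.09 to 0.04 for Tgfb1, -1.37 to 2.02 for Tgfb2, -2.09 to 1.66 for Tgfb3, -1.70 to 0.23 for Nrros, -1.38 to 0.11 for Tgfbr1, -1.19 to 0.05 for Tgfbr2, -0.16 to -0.09 for Smad2, -0.76 to -0.37 for Smad3 and -0.50 to 0.30 for Smad7. The ranges were -0.74 to 0.49 for Itgb1, -2.08 to 0.69 for Itgb5, -2.03 to 0.70 for Eng, -0.93 to 0.20 for Acvrl1, -1.20 to 0.23 for Ski, -1.66 to 0.87 for Fn1, -1.81 to 1.47 for Tsc22d1, -1.93 to 0.55 for C1qa, -2.38 to -0.05 for P2ry12, -1.51 to -0.47 for Furin, -1.27 to -0.64 for Junb, -0.52 to -0.09 for Skil and 0.19 to 0.96 for Cdkn1a. The remaining library of a group is there assumed to vary like the other group. Tgfb1 turned positive without control 6, Smad7 without control 1, and Nrros, Tgfbr1 and Tgfbr2 without cKO 2, and the cause was not tested.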

Other observations

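Several genes that hold or release latent TGF-beta are given here; they were picked out after their values were seen. Lrrc32, which encodes the NRROS relative GARP, measured 15.7, 2.21, 14.2 and 0.622 CPM (in the order control 1, control 6, cKO 2, cKO 5). The latent TGF-beta binding protein genes Ltbp1 and Ltbp4, which tether the latent ligand to matrix, had 3.72, 0.406, 4.97 and 0.466 CPM and 33.1, 10.6, 40.1 and 3.99 CPM in that order. Ltbp3, of the same family, had 4.75, 4.99, 11.3 and 1.55 CPM. Itgb8, the integrin subunit known for releasing TGF-beta in the brain, had 14.6, 2.96, 25.1 and 2.38 CPM. For Lrrc32, Ltbp1, Ltbp4 and Itgb8, the values of control 1 and cKO 2 exceeded those of the other libraries, so each genotype held a high and a low library. For Ltbp3 this did not hold, since control 6 was not below control 1. Itgav, the partner chain of Itgb8, had 47.6, 56.3, 46.1 and 78.8 CPM, without that division.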
